A study of Mus musculus with 8 samples.

Results

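The immune checkpoint ligands and receptors described here are 10 genes: the ligands Cd274, Pdcd1lg2, Lgals9, Lgals1 and Fgl2, and the receptors Pdcd1, Lag3, Havcr2, Lair1 and Vsir. They were chosen by symbol, and all 10 had a row among the 49585 genes of the count table and passed the filter on low counts, with 22693 genes tested in all. RNA came from the whole uterus, fetal tissue included, of 8-week-old Foxp3DTR female mice killed on embryonic day 8 (E8) of pregnancy after mating with BALB/c males. The DT females were injected intraperitoneally with 1 µg of diphtheria toxin on E1, E3, E5 and E7, and the PBS females with PBS. The libraries are written by label and replicate number, as DT1, DT3, DT4 and DT5 for the toxin and PBS1, PBS2, PBS4 and PBS6 for the control. Both groups carry the Foxp3DTR allele, which puts the toxin receptor under the Foxp3 gene of regulatory T cells, and the labels describe the regimen as removing 85% of these cells. The labels also call the injections daily; the listed days are given here. They count 4 females per treatment, and it was assumed that no females were pooled.

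Checkpoint receptors are inhibitory proteins on leukocytes that lower their activity when a ligand on a neighbouring cell or in the surroundings engages them. PD-1 (Pdcd1) on T cells binds PD-L1 (Cd274) and PD-L2 (Pdcd1lg2), and interferon-gamma is a known inducer of PD-L1. At the maternal-fetal interface this system is known for limiting maternal T cell responses to the conceptus, and mice in which PD-L1 is blocked or absent lose more allogeneic fetuses.

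Promoter windows, from 250 bases before to 50 bases after the start site, were held by RefSeq (build GRCm38.p6) for 8 of the 10 genes, and those of Lag3 and Lgals1 were not used here. The core of the interferon-stimulated response element (GAAA, any 2 bases, GAAA) and the gamma-activated sequence (TTCNNNGAA) were searched on both strands. The Lair1 window is shown because Lair1 was the gene that passed the test, and it held neither motif. The Lgals9 window is shown because it held the response element core at 2 places, beginning 55 bases before the start site and at base 16 after it. The Fgl2 window is shown as the only one of the 8 with TTCNNNGAA, once, beginning 36 bases before the start site. Capitals mark the matches, and each sequence reads 5′ to 3′ along the strand of its gene.
Lair1 (chr7:4063155-4063454, minus strand): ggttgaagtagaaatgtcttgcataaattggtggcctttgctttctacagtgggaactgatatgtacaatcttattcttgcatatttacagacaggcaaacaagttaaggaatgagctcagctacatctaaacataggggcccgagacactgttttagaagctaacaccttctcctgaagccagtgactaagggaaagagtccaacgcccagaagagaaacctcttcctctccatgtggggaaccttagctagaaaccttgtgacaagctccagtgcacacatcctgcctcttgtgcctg
Lgals9 (chr11:78984875-78985174, minus strand): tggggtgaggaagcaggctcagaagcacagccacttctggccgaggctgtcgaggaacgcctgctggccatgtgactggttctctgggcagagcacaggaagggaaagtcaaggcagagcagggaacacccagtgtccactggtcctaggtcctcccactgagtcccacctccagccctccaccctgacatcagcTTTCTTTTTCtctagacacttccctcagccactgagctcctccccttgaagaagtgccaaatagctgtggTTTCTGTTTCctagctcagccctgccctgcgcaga
Fgl2 (chr5:21372423-21372722, plus strand): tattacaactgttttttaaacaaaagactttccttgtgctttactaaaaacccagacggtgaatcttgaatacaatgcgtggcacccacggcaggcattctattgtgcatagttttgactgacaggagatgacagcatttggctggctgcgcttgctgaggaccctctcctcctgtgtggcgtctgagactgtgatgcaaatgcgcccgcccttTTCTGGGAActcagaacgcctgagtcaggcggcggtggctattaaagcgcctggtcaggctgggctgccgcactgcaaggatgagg
Of the 32851 promoter windows of all genes, 3.44% held the response element core and 8.30% held TTCNNNGAA. The windows of Cd274, Pdcd1lg2, Pdcd1, Havcr2 and Vsir held neither. A match describes these letters only.

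Total counts ranged from 94794512 to 109847604 per library and did not separate the groups (exact permutation test, two-sided, p = 0.714). Foxp3 itself was at 5.10 to 5.72 CPM (counts scaled to library size and TMM factor) in the libraries labelled DT, against 4.36 to 5.44 CPM in those labelled PBS (log2 fold change 0.15 ± 0.10, SE; edgeR adjusted p = 0.595). Its exons overlap those of 4 other genes, and 18.9% of its 75-base windows occur elsewhere. The 5 regulatory T cell markers summed to 16.8 to 19.8 CPM for DT, against 16.9 to 31.8 CPM for PBS. The labels thus have no check in Foxp3, and the libraries are named by them. All 4 uterine markers (Pgr, Esr1, Hoxa10 and Hoxa11) were detected, with a summed level of 1175 to 1324 CPM in libraries labelled DT, against 1161 to 1339 CPM in those labelled PBS. The libraries differed in tissue content. The 6 trophoblast markers summed to 158 and 417 CPM in PBS1 and PBS2, and to 8.61 to 42.8 CPM in the other 6 libraries. The 5 decidual stroma markers summed to 1830 CPM in DT1, to 5570 to 7499 CPM in the other DT-labelled libraries and to 4739 to 10580 CPM in the libraries labelled PBS. The labels of PBS1 and PBS2 also share a suffix (S1), and each suffix occurs in 1 group only, so that whatever it stands for cannot be told apart from treatment.

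Among the 10 genes, Lair1 rose in the DT-labelled uteri and the other 9 did not pass the test (edgeR quasi-likelihood with Benjamini-Hochberg adjustment over all genes tested, threshold 0.05). That is 1 of 10 called higher and 0 called lower, against 0.322% and 0.00441% of all genes tested. Without adjustment 3 were higher at p under 0.05 (Lair1, Fgl2 and Cd274) and 0 lower, against 4.72% and 3.98% of all genes. DESeq2 and limma voom each called 1 higher, Lair1, and 0 lower. The background was 1.21% of all genes higher and 0.256% lower by DESeq2, and 0.225% higher and 0.00441% lower by limma voom. The log2 fold change (DT minus PBS) was positive for 5 genes and negative for 5, with a median of 0.14 against 0.01 over all genes tested. In whole-tissue RNA, a change in the number of cells of a type and a change in RNA per cell cannot be told apart.

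**Figure D1:**
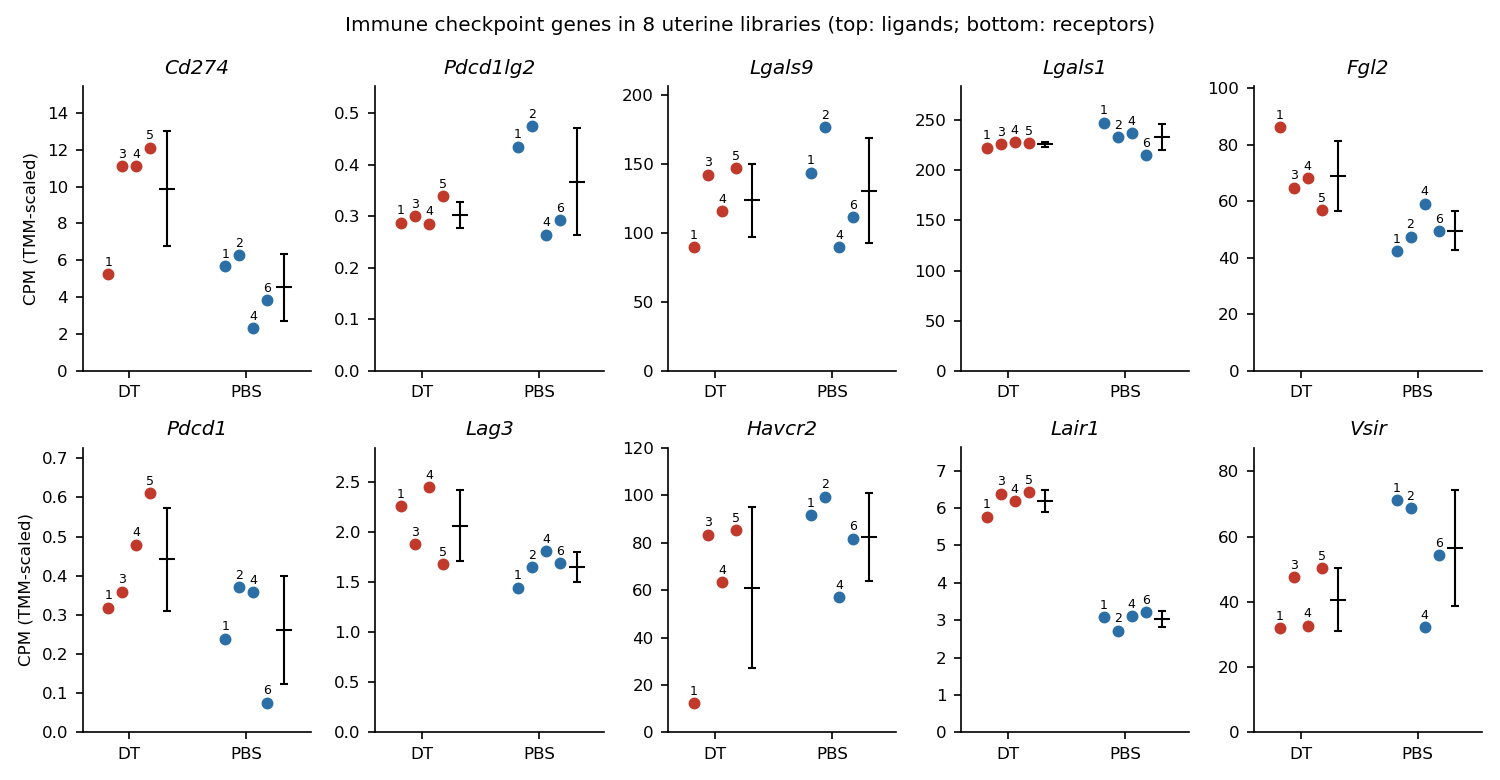
CPM of the 10 checkpoint genes in each library (y axis, linear, from 0), DT-labelled left and PBS-labelled right, ligands in the upper and receptors in the lower row; digits give the replicate, and bars the mean ± SD of 4 libraries. Lair1 is the gene whose groups do not overlap, and Cd274 is between 11.1 and 12.1 CPM in 3 DT-labelled libraries and at 5.25 CPM in replicate 1.

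**Figure D2:**
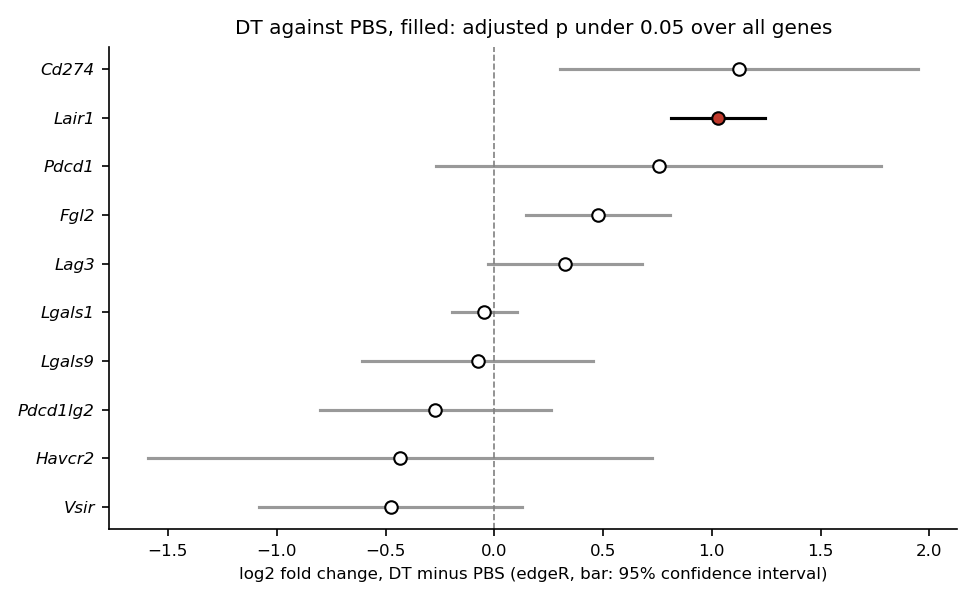
Log2 fold change (x axis, DT minus PBS) of each gene with its 95% confidence interval from the edgeR fit; the filled point passed the test over all genes. The Lair1 interval runs from 0.81 to 1.25, and the Havcr2 interval is the widest, from -1.59 to 0.72.

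Compared per length (CPM per kilobase of merged exons), the ligand Lgals1 was the most abundant of the 10, at 246 to 253 in libraries labelled DT, against 238 to 274 in those labelled PBS. Lgals9 followed at 57.9 ± 12.4 for DT, against 61.1 ± 17.8 for PBS (SD, n = 4 each, as for the next genes). Havcr2 was at 22.5 ± 12.5 for DT, against 30.3 ± 6.80 for PBS. Fgl2 came next at 18.2 ± 3.27 for DT, against 13.1 ± 1.85 for PBS, and then Vsir at 8.11 ± 1.93 for DT, against 11.3 ± 3.55 for PBS. Cd274 was at 2.73 ± 0.864 in libraries labelled DT, against 1.25 ± 0.499 in those labelled PBS. Lag3, Lair1, Pdcd1 and Pdcd1lg2 averaged under 1 CPM per kilobase in both groups. Neighbours in this order stood in the same order in 8 of 8 libraries for Lgals1 over Lgals9, Lgals9 over Havcr2, Vsir over Cd274 and Lair1 over Pdcd1. Havcr2 over Fgl2, Cd274 over Lag3 and Lag3 over Lair1 held in 7 of 8, Fgl2 over Vsir in 6 of 8, and Pdcd1 over Pdcd1lg2 in 5 of 8. The PD-1 receptor and its second ligand were thus not separated in level over the 8 libraries. Pdcd1 was the higher of the pair in DT1, DT3, DT4, DT5 and PBS4, and Pdcd1lg2 in PBS1, PBS2 and PBS6. A group difference in this order was not tested, and both genes rest on few reads.

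The PD-1 ligand Cd274 (ENSMUSG00000016496, chr19:29367455-29388095 of GRCm38, plus strand) measured 5.25, 11.1, 11.1 and 12.1 CPM in DT1, DT3, DT4 and DT5, against 5.67, 6.29, 2.31 and 3.85 CPM in PBS1, PBS2, PBS4 and PBS6. DT3, DT4 and DT5 lay above every PBS-labelled library, and DT1 lay within the PBS-labelled range. The mean was 9.89 ± 3.13 CPM for DT, against 4.53 ± 1.81 CPM for PBS (SD, n = 4 each), and the log2 fold change of 1.13 ± 0.36 (SE; 95% confidence interval 0.30 to 1.95) did not pass (edgeR adjusted p = 0.502, unadjusted p = 0.0133). Its estimate was positive in every alternative fit, from 0.91 without PBS4 to 1.89 without PBS1 and PBS2 and DT1 (adjusted p = 0.0605 in that fit). The exons of an antisense gene, AC119228.1, overlap 511 of its 3622 exon bases, and since the strand setting of the counting is not given, reads of the antisense gene cannot be told apart there.

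The second PD-1 ligand, Pdcd1lg2, begins 22823 bases past the end of Cd274 on the same strand. It measured 0.288, 0.300, 0.286 and 0.340 CPM in DT1, DT3, DT4 and DT5, against 0.436, 0.474, 0.264 and 0.293 CPM in PBS1, PBS2, PBS4 and PBS6. The groups overlapped, with the highest values in PBS1 and PBS2, and the log2 fold change was -0.27 ± 0.23 (SE, edgeR adjusted p = 0.636). These levels rest on 28 to 46 reads per library. The measured ratio of Cd274 to Pdcd1lg2 per length was 9.88 in DT1 and at least 19.3 in the other DT-labelled libraries, against 4.74 to 7.18 in the libraries labelled PBS. The ratios did not overlap between the groups, a description of a pair that was not tested. The share of gene pairs whose ratio separates the groups was not computed. The ratio of Cd274 to the receptor Pdcd1 per length did overlap, at 8.77 to 16.5 for DT, against 3.44 to 27.1 for PBS.

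The receptor Pdcd1 measured 0.319, 0.360, 0.479 and 0.612 CPM in DT1, DT3, DT4 and DT5, against 0.240, 0.371, 0.359 and 0.0756 CPM in PBS1, PBS2, PBS4 and PBS6. The values rest on 36 to 63 reads per DT-labelled library and 8 to 38 reads per PBS-labelled library, and the groups overlapped. The log2 fold change was 0.76 ± 0.45 (SE; 95% confidence interval -0.27 to 1.78, edgeR adjusted p = 0.572), so that the interval includes no change. Of the 8 T cell markers, 3 were called higher, against 0.322% of all genes tested. They summed to 14.9 to 18.1 CPM in the DT-labelled libraries, against 5.27 to 8.20 CPM in those labelled PBS. The part of these markers in the Pdcd1 estimate was not tested.

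Lair1 (ENSMUSG00000055541, chr7:4003402-4063204, minus strand) encodes an inhibitory receptor of leukocytes that binds collagens and the complement component C1q. It measured 5.77, 6.39, 6.18 and 6.43 CPM in DT1, DT3, DT4 and DT5, against 3.08, 2.72, 3.11 and 3.22 CPM in PBS1, PBS2, PBS4 and PBS6. All DT-labelled libraries lay above all PBS-labelled libraries, as for 3.33% of all genes tested, and 0 of the 10 genes lay wholly below, against 1.73% of all genes. The mean was 6.19 ± 0.302 CPM for DT, against 3.03 ± 0.216 CPM for PBS (SD, n = 4 each), 2.04-fold higher, a log2 difference of 1.03 ± 0.10 (SE; edgeR adjusted p = 0.0153). By unadjusted p it was number 4 of the 22693 genes. Its replicates lay close together, with a coefficient of variation of 4.88% among those labelled DT (median of all genes 14.4%) and 7.11% among those labelled PBS (median 16.0%).

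The call on Lair1 depended on which libraries entered the fit, while its estimate moved little. Without DT3, DT4 or DT5 or PBS1, PBS2 or PBS6, the adjusted p was 0.0663 to 0.0849 and edgeR called 0 of 10 genes, with log2 fold changes of 0.98 to 1.06. In 6 of the 8 fits that left out 1 library, edgeR called 0 genes of all tested as higher. Lair1 passed without DT1 (adjusted p = 0.00791) or PBS4 (adjusted p = 0.0270). Without PBS1 and PBS2 together the estimate was 0.96 (adjusted p = 0.369), and without these and DT1 it was 1.00 (adjusted p = 0.0395).

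Lair1 was also set beside leukocyte markers. Relative to Ptprc, the CD45 gene of all leukocytes, its level was 0.0916, 0.124, 0.131 and 0.127 in libraries labelled DT, against 0.0627, 0.0488, 0.0763 and 0.0644 in those labelled PBS. These ratios did not overlap, whereas for the other 9 genes the ratio to Ptprc overlapped between groups. The share of all genes whose ratio to Ptprc separates the groups was not computed. Ptprc itself did not pass (log2 fold change 0.12 ± 0.12, edgeR adjusted p = 0.680). The 4 leukocyte markers summed to 136 to 166 CPM in libraries labelled DT, against 116 to 179 CPM in those labelled PBS. The 6 macrophage markers summed to 294 to 347 CPM for DT, against 242 to 319 CPM for PBS. Of these 10 markers, 0 were called, against 0.322% of all genes tested called higher. Csf1r made up the largest part of the macrophage sum and overlapped. Of the 6 macrophage markers, 1 lay above without overlap, against 3.33% of all genes tested. That was Adgre1, at 18.8 to 32.8 CPM for DT, against 12.9 to 16.7 CPM for PBS (edgeR adjusted p = 0.418). Cd68 and Mertk had negative log2 fold changes, -0.54 and -0.04, and those of the other markers of the list were positive. The 6 dendritic cell markers summed to 33.3 to 53.4 CPM in libraries labelled DT, against 25.9 to 35.0 CPM in those labelled PBS. Among them 1 was called higher, against 0.322% of all genes tested, and 2 lay above without overlap, against 3.33%. All 8 T cell markers lay above without overlap, against 3.33% of all genes tested, and 3 were called higher, against 0.322%. Their sums were 14.9 to 18.1 CPM in libraries labelled DT, against 5.27 to 8.20 CPM in those labelled PBS. No marker of these 4 lists was at 0 in all libraries. The part of these cell types in the Lair1 result was not tested.

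The genes whose profile over the 8 libraries was most like that of Lair1 were Irf1, Tnfsf10, Hk3, Aif1 and Trpm2. Likeness was the mean absolute difference of centred log2 CPM, which was 0.112 for Irf1, a transcription factor of the interferon response, and 0.115 for Tnfsf10, the death ligand TRAIL. It was 0.118 for the hexokinase gene Hk3, 0.120 for Aif1, a calcium-binding protein of macrophages, and 0.133 for the cation channel gene Trpm2. The median over the 13825 genes compared was 0.523. Irf1 measured 61.4 ± 12.3 CPM in libraries labelled DT, against 32.2 ± 1.32 CPM in those labelled PBS (SD, n = 4 each), and Aif1 5.14 ± 0.680 CPM for DT, against 2.64 ± 0.192 CPM for PBS.

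Fgl2, a fibrinogen-like protein that regulatory T cells secrete and that binds Fc gamma receptors, measured 86.3, 64.9, 68.2 and 57.0 CPM in DT1, DT3, DT4 and DT5, against 42.5, 47.5, 59.2 and 49.4 CPM in PBS1, PBS2, PBS4 and PBS6. The groups overlapped through DT5 and PBS4. The mean was 69.1 ± 12.4 CPM for DT, against 49.7 ± 7.02 CPM for PBS (SD, n = 4 each), and the log2 fold change of 0.48 ± 0.14 (SE; 95% confidence interval 0.14 to 0.81) did not pass (edgeR adjusted p = 0.471). DT1, the highest, was also the library with the fewest decidual marker counts and the highest dendritic cell sum (53.4 CPM). The order of the libraries by Fgl2 was that of the dendritic cell sum in both groups, and the part of these cells was not tested.

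Lag3, a receptor of T cells and natural killer cells that binds MHC class II, measured 2.26, 1.88, 2.45 and 1.68 CPM in DT1, DT3, DT4 and DT5, against 1.45, 1.65, 1.81 and 1.69 CPM in PBS1, PBS2, PBS4 and PBS6. DT5 fell within the PBS-labelled range, and the log2 fold change was 0.32 ± 0.15 (SE, edgeR adjusted p = 0.571).

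Havcr2, which encodes TIM-3, a receptor of T cells, natural killer cells and myeloid cells, had the largest coefficient of variation of the 10 genes among the DT-labelled libraries, 55.6%. Its values were 12.4, 83.4, 63.4 and 85.2 CPM in DT1, DT3, DT4 and DT5, against 91.8, 99.5, 57.0 and 81.8 CPM in PBS1, PBS2, PBS4 and PBS6. DT1 lay far below the other 7 libraries, which overlapped between groups. The log2 fold change was -0.43 ± 0.50 (SE, edgeR adjusted p = 0.714).

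The TIM-3 ligand galectin-9, Lgals9, measured 90.0, 142, 116 and 147 CPM in DT1, DT3, DT4 and DT5, against 144, 177, 89.9 and 112 CPM in PBS1, PBS2, PBS4 and PBS6. The groups covered nearly the same range, with a log2 fold change of -0.08 ± 0.23 (SE; 95% confidence interval -0.61 to 0.46, edgeR adjusted p = 0.892). The ratio of Lgals9 to Havcr2 per length was 9.27 in DT1 and 1.74 to 2.33 in the other 7 libraries.

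Cd274, Havcr2 and Lgals9 followed the decidual marker sum, which is mostly Prl8a2, within each group. Across the groups that order did not hold for any of the 3 genes. PBS6 had a higher sum (8740 CPM) than DT3 (7358 CPM) and DT5 (7499 CPM), but lower levels of all 3 genes than these libraries. Within the libraries labelled DT, and again within the libraries labelled PBS, each of these 3 genes stood in the same order as the summed decidual stroma markers (Prl8a2, Bmp2, Hand2, Wnt4 and Alpl). Of these, Prl8a2, the decidual prolactin-related protein, contributed most, at 687 CPM in DT1, 3682 to 5666 CPM in the other DT-labelled libraries and 2893 to 8960 CPM in the libraries labelled PBS. Within the PBS-labelled libraries, Bmp2, Wnt4 and Alpl ran in the reverse order of the sum. Alpl, for example, was at 84.4 CPM in PBS4 and 37.3 CPM in PBS2. The order, and the scale and covariate built on this sum, thus mostly describe Prl8a2. The uterine NK cell, neutrophil, endothelium and embryonic erythroid lists gave that same order, so that these lists are not separate observations. The neutrophil order mostly describes S100a8, which contributed most to that sum. Of the 4 neutrophil markers, 2 (S100a9 and Retnlg) lay above without overlap in the DT-labelled libraries, against 3.33% of all genes tested. Neither passed (edgeR adjusted p = 0.254 each). Among the PBS-labelled libraries both were highest in PBS4, where the neutrophil sum was lowest. The other 2, S100a8 and Ly6g, overlapped between the groups and had negative log2 fold changes, -0.88 and -4.5, and did not pass either. The embryonic erythroid order within DT rests on sums from 0 CPM in DT1 and 0.0102 CPM in DT4 to 0.495 CPM in DT5. For Cd274 the order of DT3 and DT4 rests on 11.12 against 11.09 CPM. In all, 16 of 150 pairings of a gene with a marker list had the same order in both groups, and 15 of them were of these 3 genes with these 5 lists.

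Havcr2 amounted to 6.76, 11.3, 11.4 and 11.4 CPM per 1000 CPM of decidual markers in DT1, DT3, DT4 and DT5, against 10.3, 9.40, 12.0 and 9.35 in PBS1, PBS2, PBS4 and PBS6. Cd274 on that scale was 2.87, 1.51, 1.99 and 1.61 in libraries labelled DT, against 0.636, 0.595, 0.488 and 0.440 in those labelled PBS. Lgals9 on that scale was 49.2, 19.3, 20.8 and 19.6 in DT1, DT3, DT4 and DT5, against 16.1, 16.7, 19.0 and 12.8 in PBS1, PBS2, PBS4 and PBS6. The groups overlapped for Havcr2 and did not overlap for Cd274, Lgals9 or Lair1. The share of all genes that separate on this scale was not computed, so these separations have no background to be read against. The marker sum in PBS1, PBS2 and PBS6 exceeds that of every DT-labelled library. Dividing by it therefore raises DT-labelled values relative to those of these libraries. The CPM of Lgals9 overlapped between the groups, so that a separation on this scale is not particular to Cd274. In a fit with the log2 decidual marker sum as a covariate, chosen after the data were seen, Cd274 had an estimate of 1.62 (log2; edgeR adjusted p = 0.00860) and Lair1 one of 1.05 (adjusted p = 0.00248). That fit called these 2 of 10 genes higher, and 0 lower, against 0.859% and 0.022% of all genes. Havcr2 had an estimate of 0.10 (log2; adjusted p = 0.929). The covariate itself differs between the groups, with DT1 lowest and PBS1, PBS2 and PBS6 above every DT-labelled library, and Cd274 did not pass in the fit without it.

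**Figure D3:**
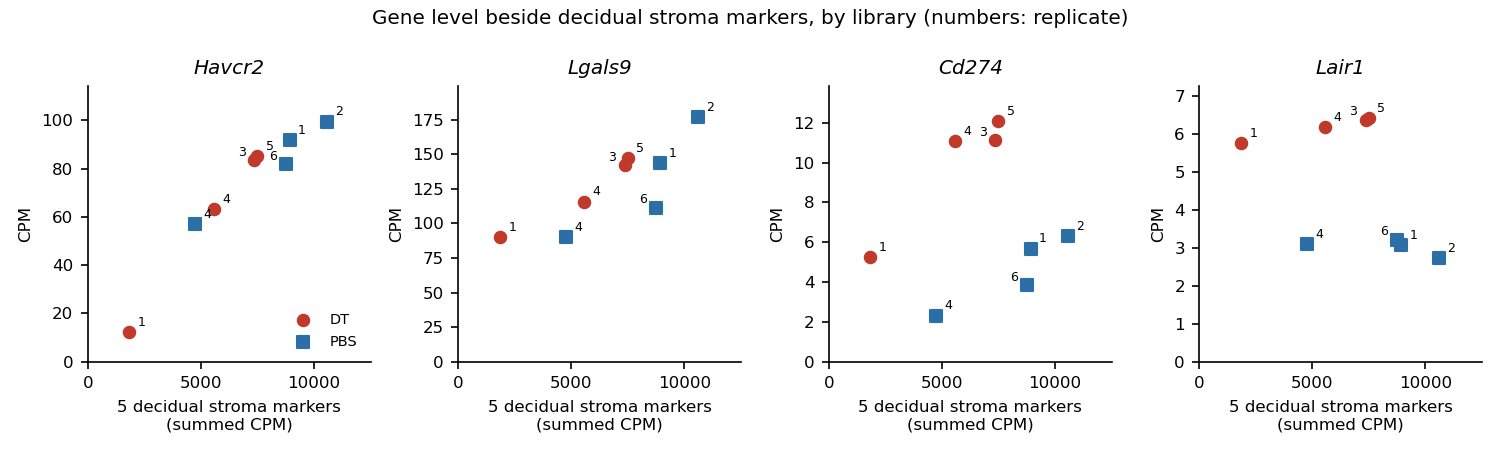
CPM (y axis) of Havcr2, Lgals9, Cd274 and Lair1 against the summed CPM of 5 decidual stroma markers (x axis), 1 point per library with its replicate number, DT-labelled as circles and PBS-labelled as squares. Havcr2 is lowest, at 12.4 CPM, where the markers sum to 1830 CPM and highest, at 99.5 CPM, where they sum to 10580 CPM, and the Cd274 points of DT3, DT4 and DT5 (11.1 to 12.1 CPM) lie above all PBS-labelled points.

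Vsir, which encodes VISTA, a checkpoint protein of myeloid cells and T cells, measured 32.0, 47.6, 32.7 and 50.4 CPM in DT1, DT3, DT4 and DT5, against 71.1, 68.7, 32.3 and 54.3 CPM in PBS1, PBS2, PBS4 and PBS6. The highest values were in PBS1 and PBS2, the libraries with the most trophoblast marker counts, and PBS4 lay among the DT-labelled libraries. The log2 fold change was -0.48 ± 0.26 (SE, edgeR adjusted p = 0.571) with all libraries and -0.10 without PBS1 and PBS2. The part of trophoblast in this was not tested.

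Lgals1, which encodes galectin-1, a lectin that decidual stroma makes in abundance and that promotes tolerance of the fetus in mice, had the smallest coefficient of variation of the 10 genes in both groups. It measured 222, 226, 228 and 227 CPM in DT1, DT3, DT4 and DT5, against 247, 233, 237 and 215 CPM in PBS1, PBS2, PBS4 and PBS6. The log2 fold change was -0.05 ± 0.07 (SE, edgeR adjusted p = 0.763), and its 95% confidence interval ran from -0.20 to 0.10. Scaled by library size only, which moved the median of all genes to 0.12, its estimate was 0.07, and so its direction depended on the scaling.

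Other genes of these pathways were counted from lists chosen by function, and each count is to be read against the share of all genes tested that met the same criterion. Of 7 partners of the PD-1 axis, 0 passed by edgeR, with 2 higher before adjustment (p under 0.05, 4.72% of all genes), 1 higher by DESeq2 (1.21% of all genes) and 0 by limma voom (0.225%), and a median log2 fold change of -0.05. The gene nearest the threshold was Cd86, a ligand on antigen-presenting cells of CD28 and CTLA-4 rather than of PD-1. It measured 2.64 ± 0.159 CPM in libraries labelled DT, against 1.45 ± 0.284 CPM in those labelled PBS (SD, n = 4 each) without overlap, a log2 difference of 0.86 ± 0.16 (SE; edgeR adjusted p = 0.118, DESeq2 adjusted p = 4.12e-05). Ptpn6, the phosphatase SHP-1 that inhibitory receptors recruit, differed by 0.23 ± 0.08 (edgeR adjusted p = 0.549).

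Of 13 tested co-inhibitory receptors outside the 10 genes, 0 passed by edgeR, with 4 higher and 0 lower before adjustment (4.72% and 3.98% of all genes), 1 higher by DESeq2 (1.21% of all genes) and 0 by limma voom (median log2 fold change 0.05). Tigit, a receptor of T and NK cells, differed by 0.65 ± 0.12 on the log2 scale (SE, edgeR adjusted p = 0.107). Pirb, a myeloid receptor for MHC class I with 26.9% of its windows shared with other genes, differed by 0.42 ± 0.13 (edgeR adjusted p = 0.490). Of 14 tested co-inhibitory ligands, 0 passed by edgeR, with 3 higher and 0 lower unadjusted (4.72% and 3.98% of all genes), 2 higher by DESeq2 (1.21%) and 0 by limma voom (median 0.36). Cd200, the ligand of an inhibitory receptor of myeloid cells, measured 37.6 ± 2.10 CPM in libraries labelled DT, against 26.0 ± 3.66 CPM in those labelled PBS (SD; edgeR adjusted p = 0.123). Tnfrsf14, the ligand of BTLA, measured 8.88 ± 1.26 CPM for DT, against 6.34 ± 0.326 CPM for PBS (edgeR adjusted p = 0.245).

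Of 8 costimulatory receptors, 0 passed by edgeR, with 2 higher and 0 lower unadjusted (4.72% and 3.98% of all genes), 2 higher by DESeq2 (1.21%) and 0 by limma voom (median log2 fold change 0.17). They were Cd2, an adhesion receptor of T and NK cells, with a log2 fold change of 1.21 ± 0.25, and Cd226, the activating counterpart of TIGIT, with 1.61 ± 0.38 (SE, edgeR adjusted p of 0.170 and 0.259). Of the 8 T cell markers, 3 were called higher, against 0.322% of all genes tested, and their part in these estimates was not tested. Of 12 transcription factors of activated or exhausted T cells, 0 passed by edgeR, with 2 higher and 0 lower unadjusted (4.72% and 3.98% of all genes), 1 higher by DESeq2 (1.21%) and 0 by limma voom (median -0.07). Tbx21, which directs type 1 T cells, differed by 0.45 ± 0.11 on the log2 scale (edgeR adjusted p = 0.276), and Nfatc2, a calcium-responsive factor, by 0.33 ± 0.13.

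Of 19 tested partners of LAIR-1, VISTA, FGL2, LAG-3 and TIM-3, 2 rose and 0 fell by edgeR, against 0.322% and 0.00441% of all genes tested. Before adjustment 4 were higher and 0 lower, against 4.72% and 3.98% of all genes. By DESeq2 3 were higher, against 1.21%, and by limma voom 1, against 0.225%, without C1qb (limma voom adjusted p = 0.0560). The 2 called by edgeR were C1qa and C1qb, chains of the complement component C1q that LAIR-1 binds. The third chain, C1qc, did not pass (edgeR adjusted p = 0.0761). C1qa measured 49.4 ± 6.41 CPM in libraries labelled DT, against 29.4 ± 1.94 CPM in those labelled PBS (SD, n = 4 each; edgeR adjusted p = 0.0353), and C1qb 49.7 ± 6.59 CPM for DT, against 30.6 ± 2.87 CPM for PBS (edgeR adjusted p = 0.0491). In 6 of the 8 fits that left out 1 library, edgeR called 0 genes higher, and these calls were lost. Over the list the median estimate was 0.09. The collagen genes of the list overlapped between the groups and did not pass. Their log2 fold changes ran from -0.21 for Col4a1 to 0.38 for Col17a1. Of 6 other galectins, 0 passed by edgeR, DESeq2 or limma voom, and 0 had an unadjusted p under 0.05 (median -0.28). Lgals2 and Lgals3 came nearest, with log2 fold changes of -0.57 ± 0.36 and -0.78 ± 0.54 (SE), and Lgals3, a galectin that binds LAG-3, measured 41.6 to 164 CPM in the libraries labelled DT, against 270 and 315 CPM in PBS1 and PBS2 and 69.4 and 132 CPM in PBS4 and PBS6.

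Of 13 interferon-gamma signalling genes, 1 rose and 0 fell by edgeR, against 0.322% and 0.00441% of all genes. Before adjustment 7 were higher and 0 lower, against 4.72% and 3.98% of all genes, and by DESeq2 3 were higher, against 1.21% (median log2 fold change 0.16). The gene was Irf1, at 43.5, 64.9, 65.7 and 71.7 CPM in DT1, DT3, DT4 and DT5, against 31.4, 31.9, 31.3 and 34.1 CPM in PBS1, PBS2, PBS4 and PBS6 (edgeR adjusted p = 0.0491). As with Cd274, DT1 was the lowest of its group, but here it stayed above all PBS-labelled libraries. Limma voom called 0 of these 13 genes, and the Irf1 call was lost in those same 6 fits.

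**Figure D4:**
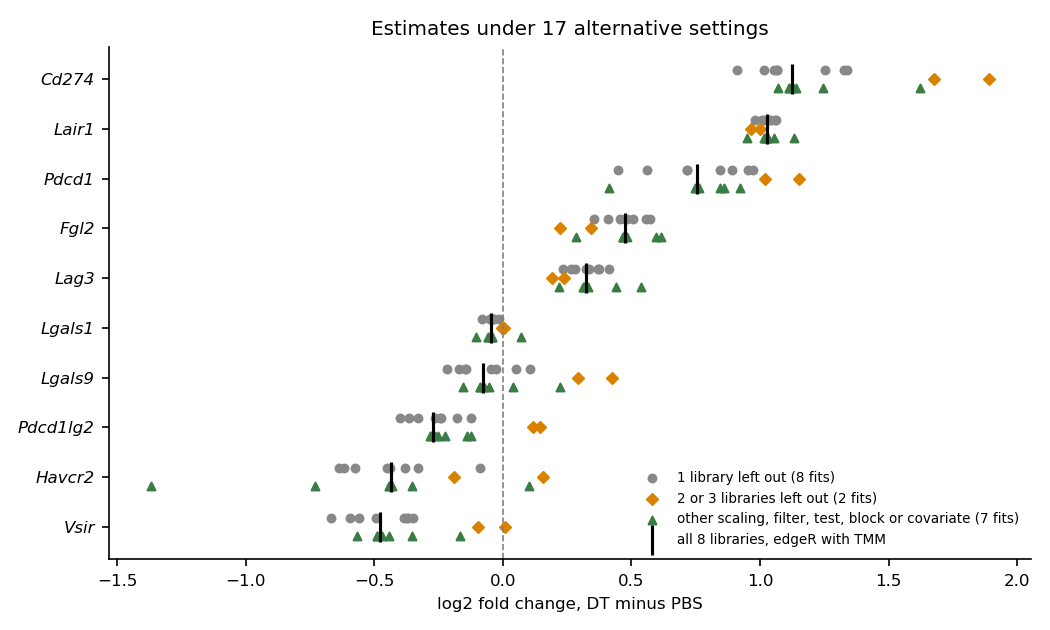
Log2 fold change (x axis, DT minus PBS) of each gene with all libraries (black bar) and under 17 alternative settings (circles leave out 1 library, diamonds 2 or 3, and triangles change the scaling, filter, test or model). Lair1 stays between 0.95 and 1.13, Cd274 between 0.91 and 1.89, and the estimates of Lgals1, Lgals9, Pdcd1lg2, Havcr2 and Vsir lie on both sides of 0.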

How the data were processed

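The deposited values are raw read counts of Ensembl genes, given by the authors in 1 table per library and again in 1 joint table. Both agreed in every cell (0 differences). The submitters' processing notes name GRCm38 as the build and list DESeq2, featureCounts, HISAT2, SAMtools and Trimmomatic. Versions, annotation, strand setting and the treatment of multiply mapped reads: not given in the sources used here. Symbols, positions and merged exon lengths came from GENCODE mouse M21 (GRCm38), which matched 49326 of 49585 IDs. For listed genes, the share of 75-base windows found in other annotated transcripts was computed, and shares of at least 10% are given.

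The counts entered edgeR 4.0.16 (R 4.3.3) with filterByExpr (minimum count 10, minimum total 15), TMM scaling and the robust quasi-likelihood test of DT against PBS, two-sided, with Benjamini-Hochberg adjustment over 22693 genes and a threshold of 0.05. The common dispersion was 0.0626. DESeq2 1.42.0, limma 3.58.1 (voom), other scalings and filters, left-out libraries and a replicate block were alternatives. The test was tested on simulated data. No pair of libraries agreed within sampling noise (smallest chi-square per degree of freedom 28.81 over 28 pairs).

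The genes, lists and tests were chosen with earlier results of these data known. From each list the genes past the test were named, up to 4, and otherwise the 2 with the smallest unadjusted p. Lilrb4a had no matching symbol, and Vsig4 and Clec4g did not pass the filter. The 5 genes most like a called gene were taken among genes whose mean log2 CPM was 0 or more, with no predicted-model symbol.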

Additional observations from a re-analysis of the deposited data

Results flagged for a closer look

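Cd274 in DT1 measured 5.25 CPM, and it is listed because it lay far from the other 3 DT-labelled libraries, which measured 11.1 to 12.1 CPM. Its gap to the nearest of them was 0.852 of the whole range of the group, past Dixon's 95% critical value for 4 samples. Of 20 groups of 4 libraries examined, 1 was past that value, and chance alone gives about 1 in 20. The same library had the fewest decidual marker counts (1830 CPM), and the part of this in its Cd274 level was not tested.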

How the results depend on the processing

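All 10 genes were refitted under 17 alternatives, 1 of which (the decidual marker covariate) was chosen after seeing the data. Cd274, Pdcd1, Lag3, Fgl2 and Lair1 kept a positive sign in all of them. Lair1 kept its call in 9 and lost it in 8, with adjusted p from 4.16e-24 to 0.996. Pdcd1lg2 turned to 0.12 without PBS1 and PBS2 and to 0.15 without these and DT1. Without PBS1, PBS2 and DT1, Havcr2 turned to 0.16, Vsir to 0.0082 and Lgals1 to 0.0052, and Lgals1 was 0.069 by library size only. Lgals9 ranged from -0.22 to 0.10 over the fits that left out 1 library, positive without DT1 (0.05) and without PBS2 (0.10). It was 0.040 by library size only, 0.29 without PBS1 and PBS2, 0.42 with DT1 also left out, and 0.22 with the covariate, where Havcr2 turned to 0.10. None of these values passed the test.

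Of all genes, 73 were called higher and 1 lower by edgeR, against 275 and 58 by DESeq2. With library size only, 2 were lower, and with the decidual covariate 195 were higher and 5 lower. Without PBS1 and PBS2, 0 were higher, 0 of the 10 genes were called, and 687 genes were higher at an unadjusted p under 0.05. Leaving out 1 library gave 0 to 115 genes higher, 0 to 5 lower, and 0 to 1 of the 10 genes higher. For the 10 checkpoint genes, the median estimate was 0.095 to 0.21 in those fits, 0.25 by library size only, 0.26 without PBS1 and PBS2, 0.21 without these and DT1, and 0.22 with the covariate, which called 2 of the 10 genes.

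Replicate numbers 1 and 4 occur in both groups, but nothing in the labels makes them a pair, and the deviations of same-numbered libraries correlated at -0.49 for number 1 and 0.32 for number 4. With the replicate number as a block, which leaves 1 residual degree of freedom, 0 genes were called higher and 0 lower, 0 of the 10 genes passed, and at an unadjusted p under 0.05 there were 205 genes higher and 75 lower. Pdcd1 (8 to 63 reads per library) and Pdcd1lg2 (28 to 46) had the fewest reads of the 10 genes. For all 10 genes, the parts of read number and of the spread between libraries were not separated.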
